A study of Homo sapiens with 9 samples.

Results

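The genes described here build and control the contacts of epithelial cells: cadherin and catenin adhesion, keratins, tight junctions, desmosomes, gap junctions, hemidesmosomes, and the factors that mark or oppose a shift towards a mesenchymal state. The list held 41 genes, chosen by symbol. Of these, 38 were measured by a probe set that carries a single gene symbol, as were 19775 genes in all, and the brightest such probe set over the arrays stood for each gene. F11R, CTNND1 and ESRP2 had no such probe set and are not analysed here. The cells were HT29, an established human line from a colon cancer, and the platform was the Affymetrix HG-U133 Plus 2.0 array, on which probe sets read out the RNA of each gene. Cells were untreated (Control), exposed for 24 h to 1.68 µg/mL of caffeic acid (CA), or exposed for 24 h to 7 µg/mL of instant caffeinated coffee (ICC), with 3 arrays in each group and no other agent named. Caffeic acid is a phenolic acid of coffee, so the comparisons ask how the beverage and 1 of its compounds act on these cells. Nothing in the labels ties a replicate to its own culture, so the p-values reflect how far these arrays spread, which may be technical, and all arrays come from 1 cell line.

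Epithelial cells are held together by junctions arranged from the apical to the basal side. Tight junctions, made of claudins and occludin tied to the zonula occludens scaffolds, seal the space between cells. Adherens junctions join E-cadherin to actin through catenins, desmosomes join desmosomal cadherins to keratin filaments through plakins and plakophilins, and hemidesmosomes fix integrin to laminin. In an epithelial to mesenchymal transition, ZEB and SNAI factors repress CDH1, while vimentin and fibronectin rise and GRHL2 and the ESRP splicing factors, which sustain the epithelial state, are lost.

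Across the arrays the median intensity lay between 43.8 and 46.6, and the median of all probe sets was 5.49 log2. Of the 8 fibroblast markers, 3 (COL1A1, THY1 and DCN) lay above that median, none above the upper quartile of all probe sets (7.62), and LUM and POSTN below the lower quartile (4.15). Of the 8 colon epithelial markers measured, KRT20, LGALS4 and VIL1 lay above the upper quartile, while CDH17 lay below the lower one. None of the 6 endothelial, 5 leukocyte or 6 squamous markers measured lay above the upper quartile.

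The promoters shown are those of FN1, CLDN2 and CLDN3, whose levels passed the test for a difference by replicate number, and of OCLN, whose call in replicate 1 depended on the processing, so that members of one junction can be compared by what lies before their start. Each is the stretch of 250 bases before the gene's start, 5′ to 3′ on the gene's strand, from RefSeq with build GRCh38.p14, and 25 of the 38 members matched an entry. FN1 lies at chr2:215436069-215436318 on the minus strand, CLDN2 at chrX:106899914-106900163 on the plus strand, CLDN3 at chr7:73770271-73770520 on the minus strand and OCLN at chr5:69492297-69492546 on the plus strand. Capitals mark matches on either strand to the cyclic AMP response motif TGACGTCA, to TGANTCA or to CAGGTG, the E-box letters that ZEB and SNAI factors bind. TGANTCA, with any base at N, is wider than the AP-1 motif, which has C or G there. The CLDN2 match has T at that base. No match of one motif overlapped another.
FN1: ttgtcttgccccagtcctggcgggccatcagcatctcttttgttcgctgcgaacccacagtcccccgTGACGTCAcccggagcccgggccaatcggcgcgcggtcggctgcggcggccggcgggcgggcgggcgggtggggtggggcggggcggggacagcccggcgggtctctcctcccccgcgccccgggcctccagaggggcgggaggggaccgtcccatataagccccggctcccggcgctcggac
CLDN2: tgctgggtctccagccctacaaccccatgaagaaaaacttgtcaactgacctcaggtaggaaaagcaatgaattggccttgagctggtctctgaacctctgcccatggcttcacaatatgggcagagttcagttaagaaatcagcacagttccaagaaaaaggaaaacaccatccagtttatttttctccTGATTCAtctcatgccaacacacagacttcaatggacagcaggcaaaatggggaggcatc
CLDN3: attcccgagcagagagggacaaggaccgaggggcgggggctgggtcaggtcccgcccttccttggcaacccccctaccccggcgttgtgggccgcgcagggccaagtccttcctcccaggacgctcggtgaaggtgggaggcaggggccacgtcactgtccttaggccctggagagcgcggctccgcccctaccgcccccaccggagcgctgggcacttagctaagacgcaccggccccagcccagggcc
OCLN: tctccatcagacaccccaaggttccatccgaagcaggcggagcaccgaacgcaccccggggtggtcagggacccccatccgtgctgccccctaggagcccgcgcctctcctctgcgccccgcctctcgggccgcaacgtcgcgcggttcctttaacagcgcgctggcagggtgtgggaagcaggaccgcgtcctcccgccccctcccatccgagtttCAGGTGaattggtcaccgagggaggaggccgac

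In FN1 the 1 match began 183 bases before the start, in CLDN2 it began 60 bases before it and in OCLN 33 bases before it, while CLDN3 held none of these letters. TGACGTCA stood in 1 of 25 member promoters (4%) and in 1.77% of 27303 promoters of the same length. TGANTCA stood in 3 of 25 (12%), namely CLDN2, CLDN4 and GJA1, against 6.6% of all. CAGGTG stood in 8 of 25 (32%), those of DSC2, DSG2, DSP, ITGA6, LAMB3, OCLN, TJP1 and ZEB1, against 17.5% of all. These are matches of letters and were not tested as binding sites. The GC share was 76.4% in FN1, 71.6% in CLDN3, 68.8% in OCLN and 46.0% in CLDN2, with a median of 63.6% over the 25 members and 58.0% over all promoters.

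HT29 cells gave bright signals for most members. By the mean over all arrays, treated ones included, 32 of the 38 genes lay above the upper quartile of the probe sets. Another 3 lay between it and the median, and 3 below the median. Each gene is represented by its brightest probe set while the quartiles are those of all probe sets, which raises any list of genes. The share of all genes above that quartile is not given, so the count does not show whether members are brighter than other genes. Brightness depends on the probes as well as on the RNA, so levels are not ranked between genes. KRT18, the type I keratin of simple epithelia, had 14.42, 14.37 and 14.40 log2 on the 3 control arrays, and 14.39, 14.37 and 14.38 in CA and 14.34, 14.35 and 14.38 in ICC. Its type II partner KRT8 had 13.37, 13.36 and 13.47 in control, 13.30, 13.34 and 13.44 in CA and 13.24, 13.30 and 13.50 in ICC. The arrays of all groups overlapped for both keratins.

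The adhesion protein EPCAM had 12.91, 13.13 and 13.14 log2 in control, 13.03, 13.21 and 13.18 in CA and 13.08, 13.14 and 13.21 in ICC. E-cadherin, CDH1, the core of the adherens junction, had 11.98, 12.18 and 12.32 in control, 11.95, 12.18 and 12.23 in CA and 12.09, 12.12 and 12.28 in ICC. In each group the array of replicate 1 was the lowest for both genes. The α-catenin CTNNA1, which links cadherin complexes to actin, had a control mean of 11.90 ± 0.0072 log2 (SD, n = 3), the smallest SD among the 38 genes in control.

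On the mesenchymal side, the intermediate filament gene VIM had 6.17, 6.22 and 6.02 log2 in control, 6.10, 6.04 and 6.09 in CA and 6.06, 6.01 and 6.03 in ICC. It lay a little above the median of all probe sets. ZEB1, the repressor of CDH1, lay below that median, with 5.10, 5.31 and 5.27 in control, 5.10, 5.29 and 5.27 in CA and 5.27, 5.44 and 5.27 in ICC. FN1, the matrix protein fibronectin, had 8.91, 7.83 and 7.71 in control, 8.66, 7.82 and 7.54 in CA and 8.57, 7.91 and 7.69 in ICC. Its replicate 1 array stood far above those of replicates 2 and 3 in every group.

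**Figure D1:**
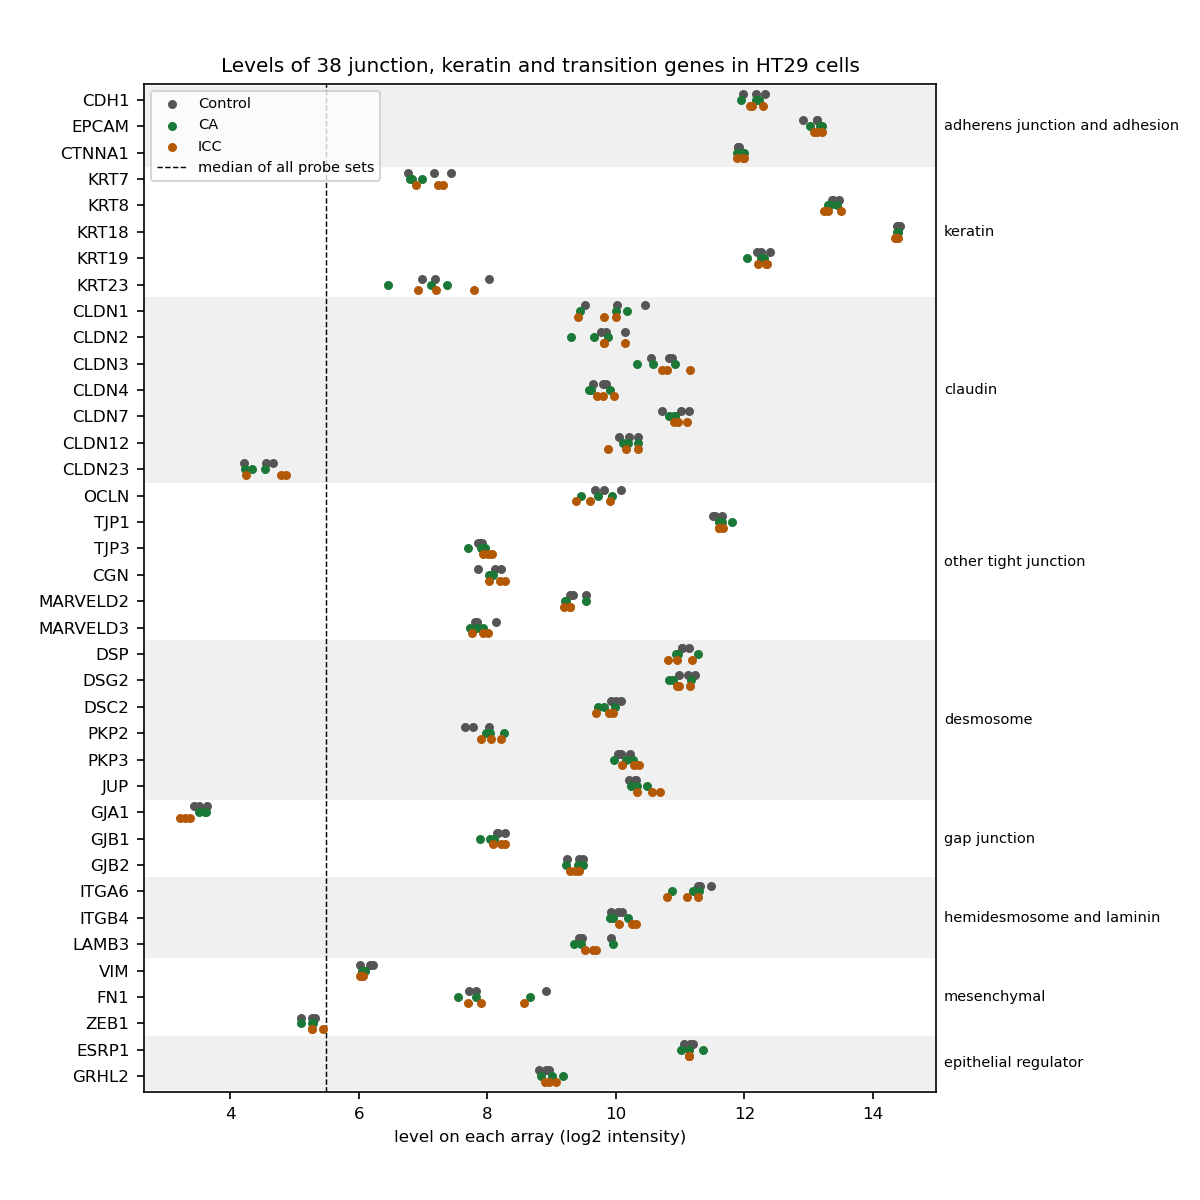
Level of each of the 38 genes on each of the 9 arrays (x axis, log2 intensity), with genes on the y axis grouped by role and points coloured by group. The dashed line is the median of all probe sets, 5.49, and CLDN23, GJA1 and ZEB1 lie to its left.

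Caffeic acid was compared with no treatment to find members that respond to this single compound. None of the 38 genes passed limma's test at an adjusted p under 0.05, where 0% of the 19775 genes passed, and the lowest adjusted p among the members was 0.996. At an unadjusted p under 0.05 stood 2 of the 38, or 5.26% against 4.47% of all genes. PKP2 was the 1 higher, where 2.55% of all genes were, and GJB1 the 1 lower, where 1.91% were. The member median was -0.04 log2, with 27 of 38 (71.1%) below 0, beside +0.003 and 48.6% over all genes. CA and control arrays were fully apart for 1 member, GJB1, or 2.63%, against 7.86% of all genes. With the replicate number as a block the count at an unadjusted p under 0.05 was 7, where 8.54% of all genes stood, and no member passed (lowest adjusted p 0.399), while 0.0152% of all genes did. Without CA replicate 3 the count of 2 was 5, where 4.85% of all genes stood. Without Control replicate 3 or CA replicate 2 it was 0, where 4.14% and 3.92% stood. Without Control replicate 1, CA replicate 1 or ICC replicate 2 or 3 it was 1, where 3.37% to 4.87% stood.

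PKP2, a plakophilin that ties desmosomal cadherins to desmoplakin, had 7.65, 8.02 and 7.78 log2 in control, 7.99, 8.26 and 8.03 in CA and 7.90, 8.06 and 8.21 in ICC. In CA it stood +0.28 ± 0.12 log2 above control (SE, n = 3 arrays a group, adjusted p 0.996), in 3 of 3 same-numbered pairs, although the groups overlapped. A dimmer PKP2 probe set stood at -0.10, on the other side of 0. GJB1, the gap junction protein connexin 32, had 8.15, 8.17 and 8.28 in control, 8.04, 7.88 and 8.10 in CA and 8.09, 8.28 and 8.21 in ICC. All 3 CA arrays lay below all 3 controls, at -0.19 ± 0.083 (adjusted p 0.996).

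CLDN2, the claudin that forms cation-permeable pores, had 9.85, 9.77 and 10.14 log2 in control, 9.66, 9.30 and 9.88 in CA and 9.82, 9.82 and 10.15 in ICC. It stood at -0.31 ± 0.16 in CA, below control in 3 of 3 pairs but with overlapping groups (adjusted p 0.996, with the block 0.414). ITGA6, the α6 integrin chain of hemidesmosomes, had 11.31, 11.28 and 11.47 in control, 10.88, 11.20 and 11.29 in CA and 10.80, 11.11 and 11.28 in ICC. Its CA difference was -0.23 ± 0.14 by this probe set (adjusted p 0.996) and +0.05 by the other ITGA6 probe set, which is nearly as bright, so the direction depends on the probe set. The farthest from 0 in CA was KRT23, a keratin of simple epithelia, at -0.41 ± 0.31, with a 95% interval from -1.10 to +0.28 (adjusted p 1.00, with the block 0.399). This interval leaves the replicate number out. With the number as a block in limma the SE of KRT23 was 0.10 and its unadjusted p 0.0027, and it lay below control in 3 of 3 pairs.

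By role and brightest probe set, all 5 keratins and 6 of 7 claudins lay below control in CA, where 48.6% of all genes did. CLDN12 stood at +0.02. Dimmer probe sets of CLDN4, KRT7, KRT19 and CLDN23 stood at +0.10, +0.08, +0.05 and +0.02. Others of CLDN1, CLDN3 and CLDN23 stood at -0.14, -0.16 and -0.10, and further KRT7 ones near 0. In the wider list described below, KRT5, KRT14, KRT80, CLDN8, CLDN16 and CLDN18 lay above control in CA, and KRT15, KRT20, CLDN5 and CLDN15 below it. The 6 other measured tight junction genes ran from -0.15 for OCLN, the sealing protein occludin, to +0.11 for TJP1, the scaffold ZO-1, and 5 of the 6 lay below 0. A dimmer TJP1 probe set stood at -0.06. Of the transition genes, FN1 stood at -0.14, VIM at -0.06 and ZEB1 at -0.004. The 95% intervals ran from -0.28 to +0.19 for CDH1 and from -0.22 to +0.09 for VIM, and the dimmer CDH1 probe set stood at -0.29, outside the interval of the one used. That for FN1, from -0.94 to +0.66, was far wider, since its replicates differed, and with the block its SE was 0.085 against 0.36. Quantile normalization applied again and centring the arrays on their medians kept these signs for CDH1, FN1 and VIM.

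Instant coffee was compared with no treatment in the same way. None of the 38 genes passed (lowest adjusted p 0.614), where 0% of all genes passed. At an unadjusted p under 0.05 stood 2 members, or 5.26% against 7.73% of all genes. JUP was the 1 higher, where 5.83% of all genes were, and GJA1 the 1 lower, where 1.9% were. The member median was +0.005 log2 with 21 (55.3%) above 0, beside +0.03 and 60.2% over all genes. The groups did not overlap for 5 members, or 13.2%, against 12% of all genes, namely GJA1, ITGA6 and MARVELD2 below control and JUP and TJP3 above it. With the replicate block the count at an unadjusted p under 0.05 was 6, where 12.4% of all genes stood, and no member passed (lowest adjusted p 0.317). Without any 1 control array the count of 2 was 1, where 5.53% to 8.36% of all genes stood.

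GJA1, the gap junction protein connexin 43, had 3.51, 3.63 and 3.43 log2 in control, 3.61, 3.62 and 3.51 in CA and 3.29, 3.22 and 3.38 in ICC. All 3 ICC arrays lay below the other 6, and the difference from control was -0.23 ± 0.078 (SE, n = 3, 1.17-fold lower, adjusted p 0.614). The probe set lay below the lower quartile of all probe sets in every group, so this is a difference between dim signals. JUP, plakoglobin, which serves in desmosomes and adherens junctions, had 10.21, 10.31 and 10.30 in control, 10.32, 10.49 and 10.23 in CA and 10.56, 10.32 and 10.68 in ICC. It stood at +0.25 ± 0.10 in ICC, with all 3 arrays above control (adjusted p 0.630).

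ITGA6 stood at -0.29 ± 0.14 log2 in ICC by its brightest probe set (adjusted p 0.648), below control on all 3 arrays, and at +0.12 by the other. PKP2 stood at +0.24 ± 0.12 (adjusted p 0.660), higher in 3 of 3 pairs, and at -0.14 by its dimmer probe set. The hemidesmosome partner chain ITGB4 had 10.09, 9.92 and 10.03 in control, 9.91, 10.18 and 9.95 in CA and 10.26, 10.04 and 10.32 in ICC. At +0.19 ± 0.099 over control (adjusted p 0.663) its groups overlapped. Dimmer ITGB4 probe sets stood at +0.35, +0.37, +0.04 and +0.05 in ICC.

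CDH1 differed from control by +0.003 ± 0.11 log2 in ICC, with a 95% interval from -0.23 to +0.24, a size within which its sign turned to -0.02 after quantile normalization was applied again and after median centring. A dimmer CDH1 probe set, still above the upper quartile, stood at -0.41, outside that interval. KRT8 (-0.06), KRT18 (-0.04), EPCAM (+0.08), VIM (-0.10), ZEB1 (+0.10) and FN1 (-0.09) ran from -0.10 to +0.10. Because CA and ICC share their control arrays, the differences of both treatments are given side by side and not as a shared response.

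ICC was then compared with CA, at doses that differ, to set the beverage directly against its compound. No member passed, with an adjusted p of 1.00 for each, and 0% of all genes passed. At an unadjusted p under 0.05 stood 2 members, or 5.26% against 2.69% of all genes. GJB1 was the 1 higher in ICC, where 2.19% of all genes were, and GJA1 the 1 lower, where 0.496% were. The median was +0.04 log2 with 23 of 38 (60.5%) above 0, beside +0.02 and 60.6% over all genes. GJA1 stood at -0.28 ± 0.078, with no overlap of arrays, the 1 such member, against 5.87% of all genes. GJB1 stood at +0.19 ± 0.083, CLDN2 at +0.32 ± 0.16 and ITGB4 at +0.19 ± 0.099. GJB1 and CLDN2 were higher in ICC in 3 of 3 same-numbered pairs and ITGB4 in 2 of 3. With the replicate block the count at an unadjusted p under 0.05 was 7, where 5.96% of all genes stood, and no member passed (lowest adjusted p 0.632), while 0.00506% of all genes did. Without CA replicate 3 or ICC replicate 2 the count of 2 was 5, where 3.97% and 4.82% of all genes stood. Without CA replicate 2 it was 4, where 2.72% stood. Without Control replicate 1, CA replicate 1 or ICC replicate 3 it was 1, where 2.68% to 3.36% stood.

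**Figure D2:**
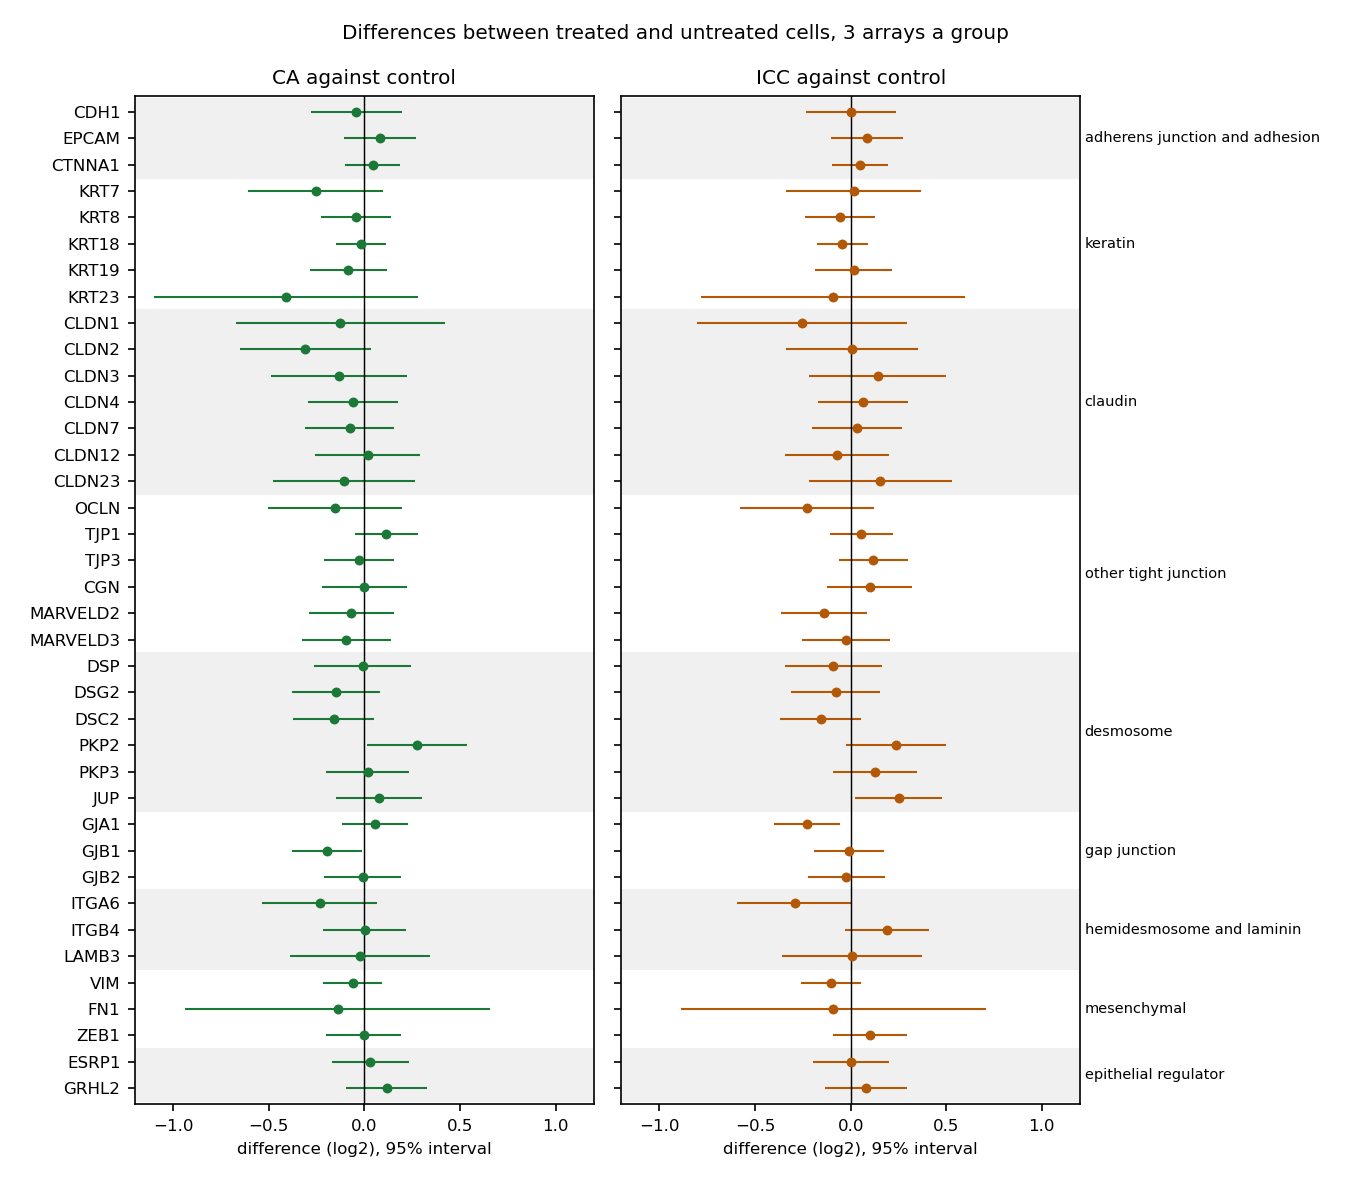
Difference from untreated cells (x axis, log2) for each of the 38 genes (y axis, by role) in CA on the left and ICC on the right. Points are the estimate and lines the 95% interval of the limma fit without the replicate block. All intervals cross 0 except those of PKP2 and GJB1 in CA and of GJA1 and JUP in ICC, and those of FN1 and KRT23 are the widest.

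The replicate number, which crosses the 3 groups, took at the median a larger share of the members' variation than the treatment group. Differences were not larger in each comparison. The members' median absolute difference was 0.085 log2 in replicate 1 against the others and 0.14 in replicate 2 against 3. It was 0.087 in ICC against control, 0.076 in CA against control and 0.078 in ICC against CA. The labels do not say what the number marks, and it is used here as a label for arrays with no order. Of the sum of squares of a gene over the 9 arrays, the number took a median of 54.2% in the members and 31.8% in all genes, the treatment group 21.3% and 21.8%, and the rest 22.6% and 36.7%. The number took more than either other share in 24 of 38 members, or 63.2%, against 38% of all genes. The highest share was that of FN1, at 96.0%, followed by CDH1 at 86.3%, KRT8 at 79.7% and KRT23 at 77.8%. The lowest was that of JUP, at 1.16%, and in GJA1, where the group took 76.7%, the number took 2.47%.

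**Figure D3:**
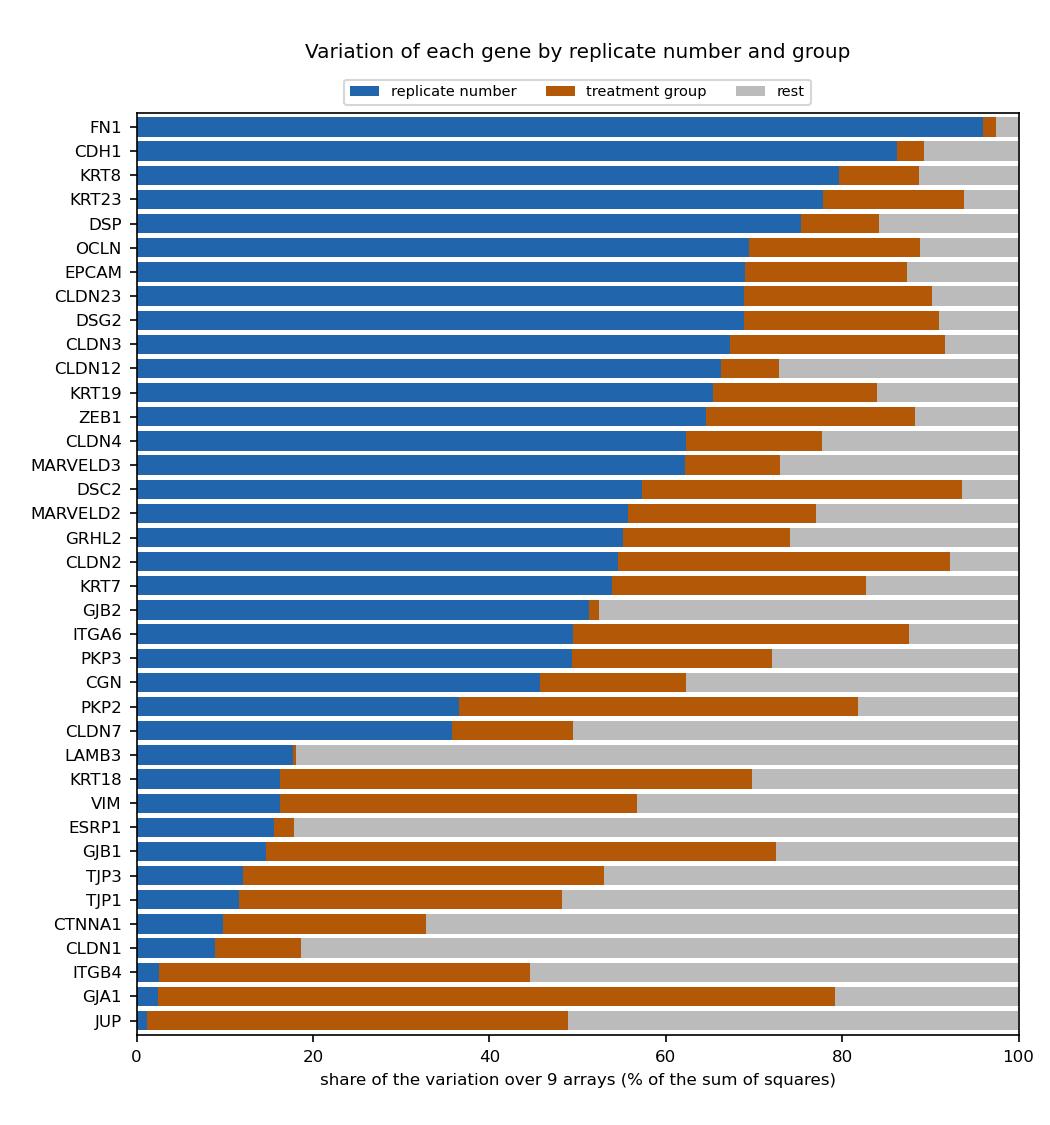
Share of the variation over the 9 arrays (x axis, percent of the sum of squares) that goes with the replicate number, the treatment group and the rest, in stacked bars for the 38 genes (y axis). FN1 stands at the top with 96.0% for the number and JUP at the bottom with 1.16%.

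Replicate 1 was set against replicates 2 and 3 in a limma model that holds the treatment group fixed. FN1 was 1.95-fold higher in replicate 1, KRT23 1.69-fold and CLDN23, a claudin expressed in the gut, 1.23-fold, and these 3 of 38 members passed, all higher, where 5.07% of all genes passed with 4.03% higher and 1.05% lower. At an unadjusted p under 0.05 stood 15 members, or 39.5%, against 19.7% of all genes. They were split as 5 higher and 10 lower, where 14.2% of all genes were higher and 5.44% lower. The arrays did not overlap, after each group's mean was taken off, for 11 members, or 28.9%, against 14.9% of all genes. The member median was -0.008 log2, beside +0.03 over all genes. Among all genes called, 79.4% were higher in replicate 1, and 68.2% after quantile normalization was applied again. Without CA replicate 1 the count of 15 was 9, where 2212 of all genes stood higher and 760 lower, against 2813 and 1075 with all arrays.

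The FN1 difference was +0.96 ± 0.073 log2 (SE, 3 arrays against 6, adjusted p 1.2e-04). It was +1.14 within control, +0.98 within CA and +0.77 within ICC. Without any 1 array it lay between +0.88 and +1.06 and passed in 9 of 9 fits. FN1 has 7 probe sets here, of which the 4 brightest stood at +0.96, +1.02, +1.19 and +1.16 while 1 near the array median stood at +0.42. The 2 dimmest, at 3.77 and 3.11 log2, stood at -0.06 and +0.04. Those 2 are the FN1 probe sets whose names do not end in _x_at or _s_at, suffixes given to probe sets that can match more than 1 transcript.

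KRT23 had 8.03, 7.18 and 6.99 log2 in control, 7.37, 7.13 and 6.46 in CA and 7.80, 7.20 and 6.92 in ICC. Replicate 1 was the highest array of each group, at +0.75 ± 0.090 against the others (adjusted p 0.00137), and +0.94, +0.58 and +0.74 within control, CA and ICC. It passed without any 1 array in 9 of 9 fits, between +0.66 and +0.84. CLDN23 had 4.67, 4.21 and 4.55 in control, 4.54, 4.23 and 4.35 in CA and 4.86, 4.25 and 4.79 in ICC, below the median of all probe sets throughout. Its difference was +0.29 ± 0.072 (adjusted p 0.0458), and it passed in only 2 of 9 fits without 1 array, missing the threshold without any control array, ICC replicate 1 or 2, or CA replicate 1 or 3. Both further CLDN23 probe sets, dimmer still, stood at -0.15 and +0.05.

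Below the other replicates in replicate 1, but not past the test, lay ITGA6 at -0.28 ± 0.072 log2 (adjusted p 0.0559), OCLN at -0.27 ± 0.072 (0.0601) and CDH1 at -0.21 ± 0.059 (0.0743), each in 3 of 3 groups. ITGA6 and CDH1 passed after quantile normalization was applied again (adjusted p 0.0472 and 0.0468), without dim genes (0.0377 and 0.0436) and on log2 of intensity plus 16 (0.0433 and 0.0334), and ITGA6 also with the mean of its probe sets (0.0417) and with array weights (0.0239). OCLN passed with quantile normalization again, without dim genes, on log2 of intensity plus 16, with array weights, and without Control replicate 1 or 2. Without 1 array ITGA6 passed in 1 of 9 fits, that without Control replicate 1, and CDH1 in 0 of 9. ITGA6 did not pass after median centring (adjusted p 0.0589), without _x_at and _s_at probe sets (0.122) or with no group term (0.184). CDH1 did not pass after centring (0.0682), with the mean of its probe sets (0.116), array weights (0.0540) or no group term (0.0645). OCLN did not pass after centring, with the mean of its probe sets, with no group term or without _x_at and _s_at probe sets. The second probe sets of ITGA6 and CDH1 stood at -0.19 each. DSC2, PKP2, EPCAM, GRHL2, ZEB1, CLDN12 and DSP stood between -0.22 and -0.15, and KRT7 and PKP3 at +0.29 and +0.18. The dimmer PKP2 probe set stood at +0.16, on the other side of 0. KRT18, CTNNA1, VIM, JUP and ITGB4 lay within 0.05 of 0 by their brightest probe sets. Dimmer ITGB4 probe sets stood at +0.19, +0.43, +0.06 and -0.12, the second with an adjusted p of 0.0125 in limma over single-symbol probe sets. A dimmer CTNNA1 probe set stood at +0.22. VIM, which marks mesenchymal cells as FN1 does, stood at +0.04 ± 0.061 where FN1 stood at +0.96.

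Replicate 2 was set against replicate 3 in the same model. CLDN3 and CLDN2 were lower in replicate 2, by a factor of 1.37 and 1.34, and these 2 of 38 members passed, where 1.73% of all genes passed and 0.799% passed as lower. At an unadjusted p under 0.05 stood 14 members, or 36.8%, against 14.4% of all genes, with 12 lower, where 6.99% of all genes were lower, and 2 higher, where 7.39% were higher. With group means taken off, the arrays of replicates 2 and 3 were fully apart for 19 members, or 50%, against 25.5% of all genes. The member median was -0.11 log2, beside -0.003 over all genes. Without Control replicate 3 the count of 14 was 8, where 1133 of all genes stood higher and 1043 lower, against 1461 and 1382 with all arrays.

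CLDN3, a sealing claudin, had 10.83, 10.54 and 10.87 log2 in control, 10.58, 10.33 and 10.93 in CA and 10.80, 10.71 and 11.15 in ICC. Replicate 2 was the lowest and replicate 3 the highest array in each group, with a difference of -0.46 ± 0.080 (SE, 3 arrays against 3, adjusted p 0.0287) and of -0.33, -0.60 and -0.44 within control, CA and ICC. Its second probe set stood at -0.48. CLDN2 stood at -0.43 ± 0.080 (adjusted p 0.0355), lower in 3 of 3 groups. Both calls were kept in 3 of 9 fits without 1 array, those without a replicate 1 array, and lost when any array of replicate 2 or 3 was left out, with differences between -0.54 and -0.33. Both were also lost with no group term in the model (adjusted p 0.0732 for CLDN3 and 0.154 for CLDN2).

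By their brightest probe sets, all 7 claudins among the members lay lower in replicate 2 than in replicate 3, between -0.46 and -0.17 log2, where 51.2% of all genes did. For 6 of the 7 the arrays did not overlap after group means were taken off, against 25.5% of all genes. Dimmer probe sets of CLDN4 and CLDN23 stood at +0.15 and +0.21, on the other side. Of the claudins in the wider list described below, CLDN15 and CLDN16 stood at +0.11 and +0.03, and CLDN5, CLDN18 and CLDN8 at -0.05, -0.03 and -0.03. CLDN23 stood at -0.33 ± 0.083 (adjusted p 0.0809) and CLDN4 at -0.25 ± 0.077. OCLN had 9.81, 9.68 and 10.09 in control, 9.46, 9.72 and 9.94 in CA and 9.38, 9.60 and 9.90 in ICC, and stood at -0.31 ± 0.083 (0.0983). Its 3 other probe sets stood between -0.38 and -0.12. The tight junction membrane proteins MARVELD2 and MARVELD3 stood at -0.19 and -0.23, and the desmosomal DSG2 and DSP at -0.25 and -0.23. On the other side stood KRT23 at +0.38 and FN1 at +0.21, neither past the test. The scaffolds TJP1 and TJP3 lay at +0.06 and +0.04.

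**Figure D4:**
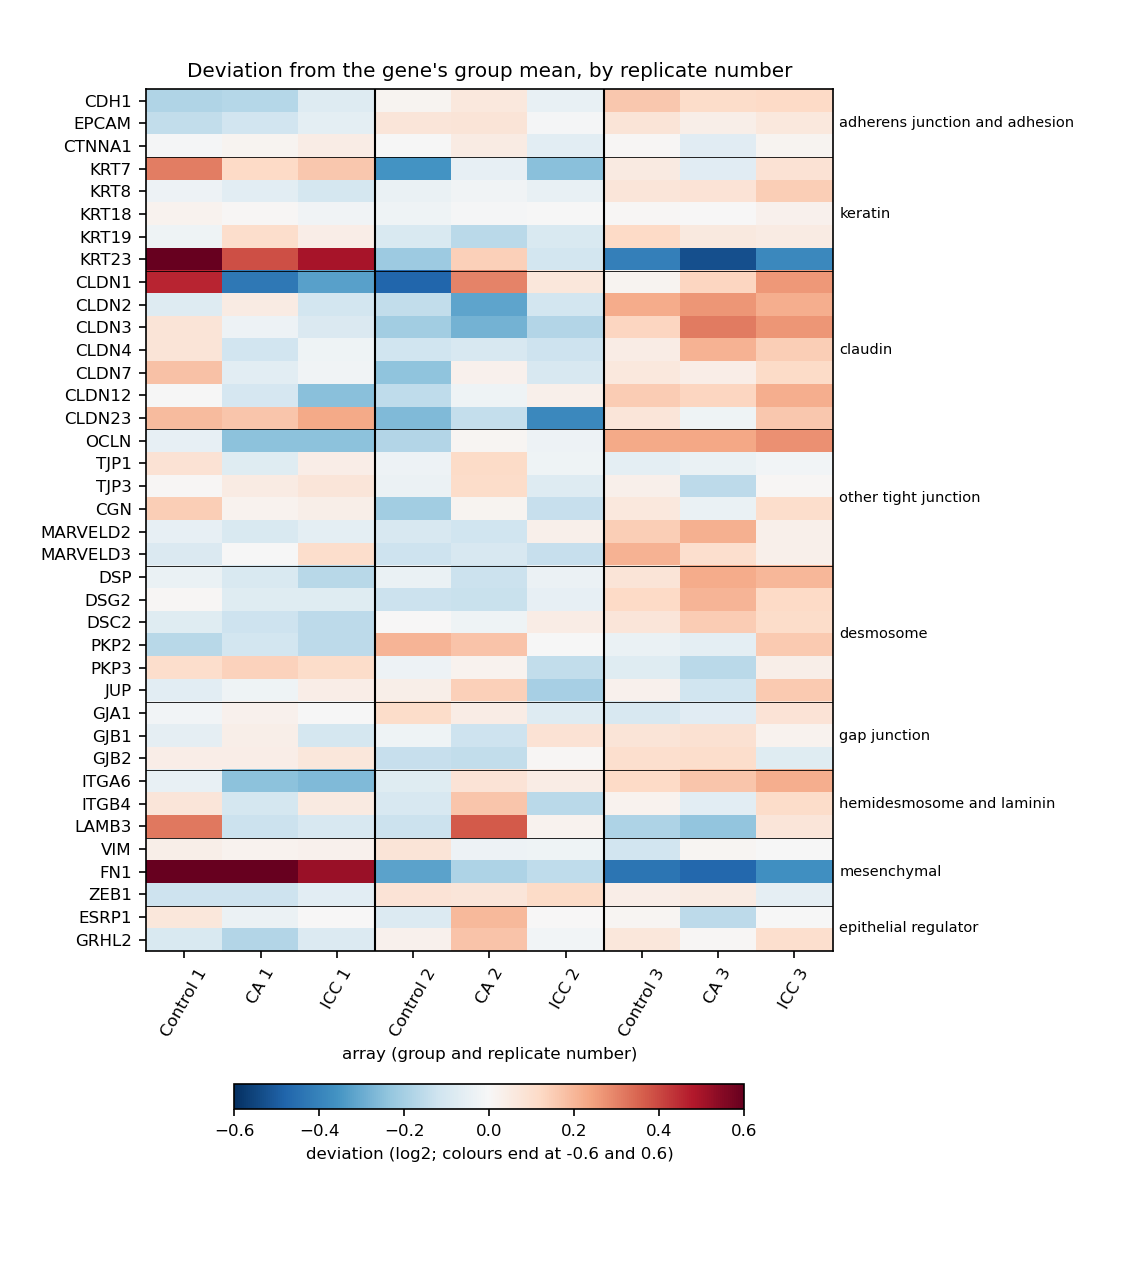
Deviation of each array from its gene's group mean (colour, log2), with the 38 genes in rows by role and the 9 arrays in columns ordered by replicate number. FN1 and KRT23 are red in all 3 arrays of replicate 1 and blue in replicate 3, where OCLN, CLDN2, CLDN3, CLDN4, CLDN7 and CLDN12 are red.

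**Figure D5:**
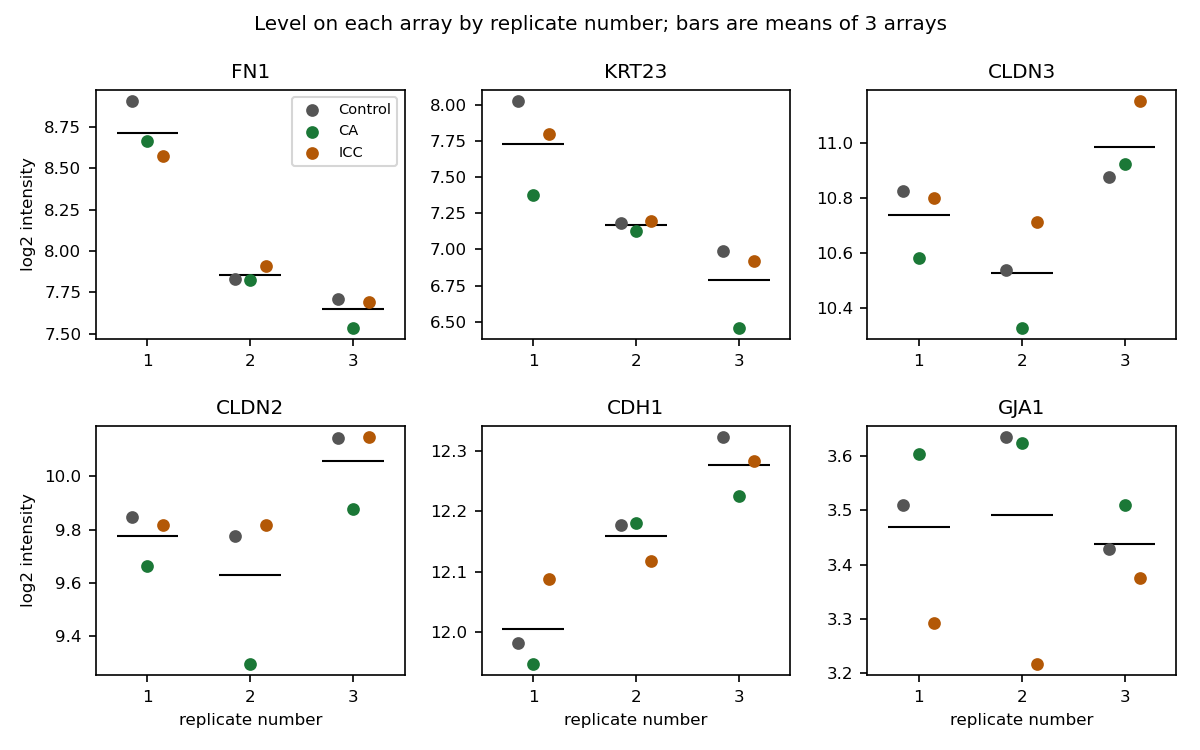
Level on each array (y axis, log2 intensity) by replicate number (x axis) for 6 genes, with points coloured by group and bars at the mean of 3 arrays; the y axes differ and do not start at 0. For FN1, KRT23, CLDN3, CLDN2 and CDH1 the points differ by number, while for GJA1 the ICC points lie lowest at each number.

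Other measures moved with the replicate number too. The 3′ minus 5′ signal of the β-actin control probe sets, a measure of RNA and labelling quality, ran from 0.16 to 0.30 log2 in replicate 1, 0.28 to 0.40 in replicate 2 and 0.29 to 0.35 in replicate 3. That of GAPDH ran from -0.04 to +0.02, -0.01 to +0.02 and +0.02 to +0.09. LGALS4, a colon epithelial marker, stood at -0.45 in replicate 1 (adjusted p 0.00435) and at +0.44 in replicate 2 against 3 (0.0287). CD14, a leukocyte marker, stood at +0.49 in replicate 1 (0.0133). Their lists did not move as they did. The median of the 8 colon epithelial markers stood at -0.07 and +0.01 in these 2 comparisons, and KRT20 at +0.17 and -0.13. That of the 5 leukocyte markers stood at +0.04 in replicate 1. The part of these measures in the member differences was not tested. The mean of the 8 fibroblast markers ran from 4.90 to 5.0 log2 in replicate 1, 4.88 to 5.04 in replicate 2 and 4.89 to 5.03 in replicate 3, and in replicate 1 against the others the 8 markers ran from -0.27 for DCN (adjusted p 0.0693) to +0.09 for LUM, none past the test.

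A wider list of 73 junction and transition genes, of which 65 were measured, was then tested by treatment. The 65 include LAMA4, another laminin gene, which a synonym match put in place of the listed LAMA3. None passed in any of the 3 treatment comparisons. At an unadjusted p under 0.05 stood 10 in ICC (15.4%), 7 higher and 3 lower, 2 in CA (3.08%), both lower, and 4 in ICC against CA (6.15%), all higher. Of all genes 7.73%, 4.47% and 2.69% stood there, with 5.83% higher and 1.9% lower in ICC, 1.91% lower in CA and 2.19% higher in ICC against CA. In ICC those with the smallest p were the adhesion receptor CXADR at -0.31 log2, GRHL1 at -0.23, the plakophilin PKP1 at -0.20 and the polarity protein PARD6B at +0.54. In CA they were the calcium-binding protein S100A4 at -0.39 and CXADR at -0.20. Between ICC and CA they were S100A4 at +0.44, the envoplakin EVPL at +0.28, the tricellular junction receptor LSR at +0.30 and NECTIN2 at +0.18.

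By replicate number, 5 of the 65 (7.69%) passed in replicate 1 against the others, where 5.07% of all genes did. The keratins KRT80 at +0.46 ± 0.097 log2 (adjusted p 0.0265) and KRT15 at +0.44 ± 0.066 (0.00476) and the catenin CTNNA2 at +0.31 ± 0.072 (0.0353) were higher. NECTIN3 at -0.36 ± 0.086 (0.0417) and β-catenin, CTNNB1, at -0.39 ± 0.094 (0.0443) were lower, and CTNNB1 was named after its value was seen. In replicate 2 against replicate 3, 3 of the 65 (4.62%) passed, where 1.73% of all genes did. OVOL1, a transcription factor that sustains the epithelial state, stood at +0.60 ± 0.10 (0.0260), PARD6B at +0.54 ± 0.11 (0.0410) and the actin linker vinculin, VCL, at -0.43 ± 0.083 (0.0384).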

How the data were processed

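The authors deposited 1 intensity per probe set and array. RMA is the method that the submitters' processing notes name, GeneSpring GX the program in the series design, and no source used here gives a version or setting. The deposited intensity is linear, with no value missing, so log2 was taken before any test. Of 54675 probe sets, 41091 had 1 gene symbol, 1801 several, 11721 none and 62 were controls. The brightest single-symbol probe set stood for each of 19775 genes; 0 symbols were updated through RefSeq. The test was limma's moderated test (version 3.58.1, under R 4.3.3) on all 9 arrays, with Benjamini-Hochberg adjustment over all genes and a threshold of 0.05. Treatment models held the group alone, and replicate models the group and the replicate number. SE and 95% intervals are those of the moderated test, for the treatments without the replicate block unless the block is named. With 3 arrays a group an exact permutation test cannot go below p = 0.1. The number of arrays limits the precision.

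After group means were removed, same-numbered arrays correlated at 0.327 to 0.518 over all genes and others at -0.436 to 0.0839, so the number was also fitted as a block. The members and lists were chosen with earlier results of these data known. Every array's value is given for CDH1, EPCAM, KRT8, KRT18, VIM, FN1 and ZEB1 and for the 4 members with the smallest p in each of 5 comparisons, and at most 4 genes of the wider list were named per comparison, apart from CTNNB1, named after its value was seen. The test was checked on simulated data with independent noise. For the treatments these held no effect of the replicate number, so the check does not cover that feature of the arrays. Alternatives were quantile normalization again, median centring, log2 of intensity plus 16, a filter on dim genes, other choices of probe set, array weights, fewer arrays and fewer model terms.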

Additional observations from a re-analysis of the deposited data

How the results depend on the processing

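Of 752 recomputed differences of named members, 713 kept their direction and 39 turned. Genes called numbered 0 in each treatment comparison in every setting run without the replicate block. With the replicate block they numbered 3 in CA against control and 1 in ICC against CA, with 0 members among them. With the block the members at an unadjusted p under 0.05 numbered 6 in ICC against control, 7 in CA against control and 7 in ICC against CA. Without it they numbered 2 each. Of all genes 12.4%, 8.54% and 5.96% stood there with the block, and 7.73%, 4.47% and 2.69% without it.

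The share of all genes at an unadjusted p under 0.05 stands in brackets. In ICC against control the member count was 4 when each gene's probe sets were averaged (8.52%). It was 1 on log2 of intensity plus 16 (7.95%), without dim genes (7.06%), without _x_at and _s_at probe sets (7.61%) and with array weights (7.15%). In CA against control it was 1 with quantile normalization again (5.1%), without those probe sets (4.63%) and with array weights (4.31%). In ICC against CA it was 1 with quantile normalization again (2.7%), after median centring (2.29%) and without dim genes (2.56%). Without _x_at and _s_at probe sets it was 7 in replicate 1 against the others. There 2105 of all genes stood higher and 1013 lower, against 2813 and 1075 in the main fit. The filters on dim genes and on probe set names also drop members, so counts under them are not out of 38. GJA1 is dropped as dim, while JUP and PKP2 have only _s_at probe sets and are dropped by name. Genes called in replicate 2 against replicate 3 numbered 537 without dim genes and 214 with no group term, against 343.

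With 1 array left out, the member counts ran from 1 to 3 in ICC against control, 0 to 5 in CA against control, 1 to 5 in ICC against CA, 9 to 14 in replicate 1 and 8 to 16 in replicate 2 against replicate 3. The share of all genes ran from 4.59% to 8.51%, 3.37% to 6.07% and 1.75% to 4.82% in the 3 treatment comparisons, in that order. In replicate 1 against the others, 1812 to 2758 of all genes stood higher at an unadjusted p under 0.05 and 760 to 1079 lower. In replicate 2 against replicate 3, 970 to 1546 of all genes stood higher and 1043 to 1457 lower. Genes called ran from 337 (without ICC replicate 1) to 939 in replicate 1, and from 6 (without CA replicate 3) to 360 in replicate 2 against replicate 3.

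In ICC against control, CDH1 turned to -0.015 log2 with quantile normalization again, -0.023 after centring, -0.20 with the mean of its probe sets and -0.010 with array weights. Without _x_at and _s_at probe sets, ITGA6 turned to +0.12 in ICC and +0.052 in CA, FN1 to +0.054 in ICC, +0.040 in CA, -0.055 in replicate 1 and -0.035 in replicate 2 against replicate 3, and ZEB1 to -0.030 in ICC. With array weights FN1 turned to +0.033 in CA and -0.12 in ICC against CA, and KRT8 to +0.0080 there. Also in ICC against CA, EPCAM turned to -0.019 with quantile normalization again and -0.026 after centring, KRT18 to +0.00084 with the former and CDH1 to -0.035 with the mean of its probe sets. The cause was not tested, beyond the change of probe set itself.

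With 1 array left out, these differences crossed 0. CDH1 ran from -0.086 to +0.084 in ICC against control, -0.13 to +0.043 in CA against control and -0.040 to +0.099 in ICC against CA. FN1 ran from -0.35 to +0.29, -0.47 to +0.24 and -0.21 to +0.38 in the same order. In ICC against CA, EPCAM ran from -0.053 to +0.042 and KRT8 from -0.088 to +0.040, and ZEB1 ran from -0.067 to +0.057 in CA against control. The CLDN23 call in replicate 1 was lost with quantile normalization again (adjusted p 0.0623), after centring (0.0563), on log2 of intensity plus 16 (0.0810), with the mean of its probe sets (0.593) and with no group term (0.125). Dim probe sets, GJA1 and CLDN23 among the members, give the least certain values.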
